A study of Mus musculus with 12 samples.

Results

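Lower abdominal muscle of male mice carrying humanized aromatase was compared between the 4 arrays of the line labelled AromhumH, in which human aromatase is expressed at a higher level, and the 4 arrays of the line labelled AromhumL, in which its level is lower. These 8 arrays of 12 were chosen by their titles, and the 4 wild type (WT) arrays of the series stood beside them as values and entered the estimate of the spread. All 3 groups were FVB/N males aged 1 month, and the labels record no drug, diet or surgery in any of them. Biotin-labelled cRNA was hybridised to Illumina mouse bead arrays, which read 1 colour. The labels give no promoter, founder number, integration site or aromatase measurement for either line, and nothing in them says whether the 4 arrays of a line came from different animals. The p-values therefore reflect only how far these samples vary, a part of which may be technical. A difference between the lines can come with the aromatase level or with anything else in which they differ, and these cannot be told apart. Of 19057 genes with a named probe on the array, 10575 had a probe detected on at least 4 of the 12 arrays and were tested.

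Aromatase, encoded by CYP19A1, converts androgens such as testosterone into oestrogens, so that a tissue with more of it can see less androgen and more oestrogen. Oestrogen acts mainly through the nuclear receptors encoded by Esr1 and Esr2. In skeletal muscle androgens are known for their anabolic action on the fibres, while the connective tissue between the fibres is laid down by fibroblasts that can carry oestrogen receptors. The question set by the design was whether 2 levels of human aromatase leave different expression profiles in the same muscle.

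All values below are log2 normalized intensities, on which a difference of 1 is a 2-fold difference in intensity. The skeletal muscle genes Acta1, Ckm, Myh4 and Mylpf, which encode sarcomeric actin, muscle creatine kinase, the fast myosin IIb heavy chain and a fast regulatory light chain, had group means between 14.20 and 14.71 in all 3 groups, and 0 of these 4 genes passed the test between the lines. Their differences, AromhumH minus AromhumL, ran from −0.11 for Myh4 to 0.19 for Acta1. Quantile normalization gives all arrays the same set of values, which by itself limits how far genes this bright can differ. The arrays themselves differed before normalization. The AromhumH arrays averaged a raw intensity of 334.7 ± 31.6, the AromhumL arrays 259.0 ± 25.0 and the WT arrays 317.9 ± 49.9 (SD, n = 4 each), and AromhumH ran from 296.1 to 373.2 while AromhumL ran from 221.6 to 273.9 (two-sided exact permutation p = 0.0286, the smallest that 4 against 4 allows). The ranges of the lines did not overlap, so brightness and line cannot be told apart on these 8 arrays. Median intensity (exact permutation p = 0.143) and the number of detected probes, 17658 to 18867 in AromhumH and 17198 to 17903 in AromhumL (exact permutation p = 0.0857), overlapped. The leading principal component, with 32.2% of the variance, put all 4 AromhumH arrays on one side of 0 and all 4 AromhumL arrays on the other (exact permutation p = 0.0286). Markers of mesothelium, the cell layer that lines the abdominal cavity, also differed: the mean over 7 markers was 7.75, 8.26, 7.59 and 7.69 on the AromhumH arrays, against 6.11, 7.09, 6.83 and 6.83 on the AromhumL arrays and 6.11 to 6.90 on the WT arrays. The plot of array brightness and mesothelial markers shows each array.

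**Figure D1:**
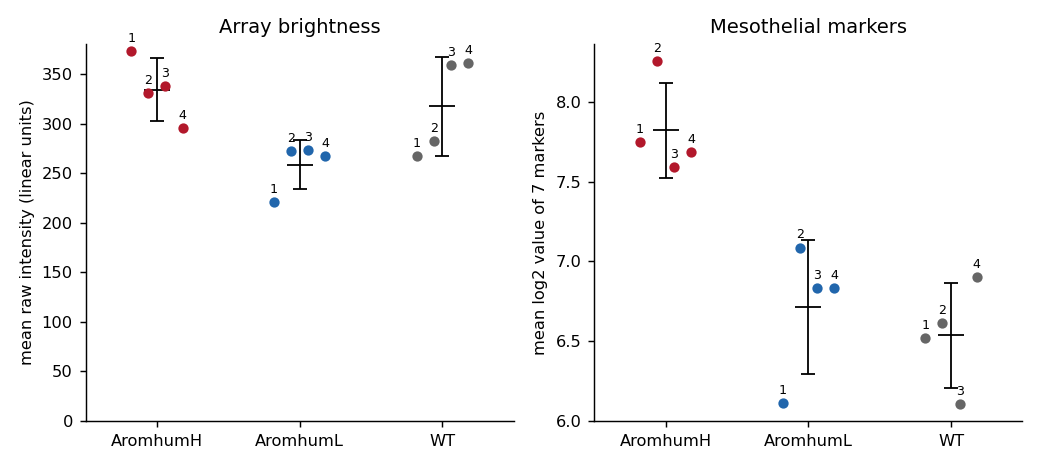
Left, mean raw intensity of each array on a linear scale from 0; right, mean log2 value of 7 mesothelial markers, whose axis does not start at 0. Points are single arrays with their replicate number, and bars are the group mean and SD (n = 4); the 4 AromhumH arrays lie above the 4 AromhumL arrays in both panels (296.1 to 373.2 against 221.6 to 273.9 on the left).

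Between the lines 638 of 10575 genes (6.03%) passed the test in limma at an adjusted p under 0.05. Of these, 425 (4.02%) were higher in AromhumH and 213 (2.01%) were lower. Among the 638, 28 had no detected array in AromhumL and 1 had none in AromhumH. Such genes met the detection filter only through the arrays of the other groups, and the AromhumL arrays were the dimmer ones. These counts are given without the share over all genes tested, so they are not a result about the called genes. The risen genes changed by a median of 0.78 and the fallen ones by a median of −0.67, whereas the median over all genes tested was −0.00 and the median standard error was 0.16. More than 2-fold changes were found in 98 risen and 16 fallen genes. The 4 AromhumH arrays did not overlap the 4 AromhumL arrays for 564 of the 638 genes, against 1668 of all 10575 genes (15.8%). The smallest adjusted p was 0.00727, shared by 10 genes, among them Eln, S100a4, Ncam1 and Kcnab1. The volcano plot of the 10575 genes shows that the risen genes reach further from 0 than the fallen ones.

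**Figure D2:**
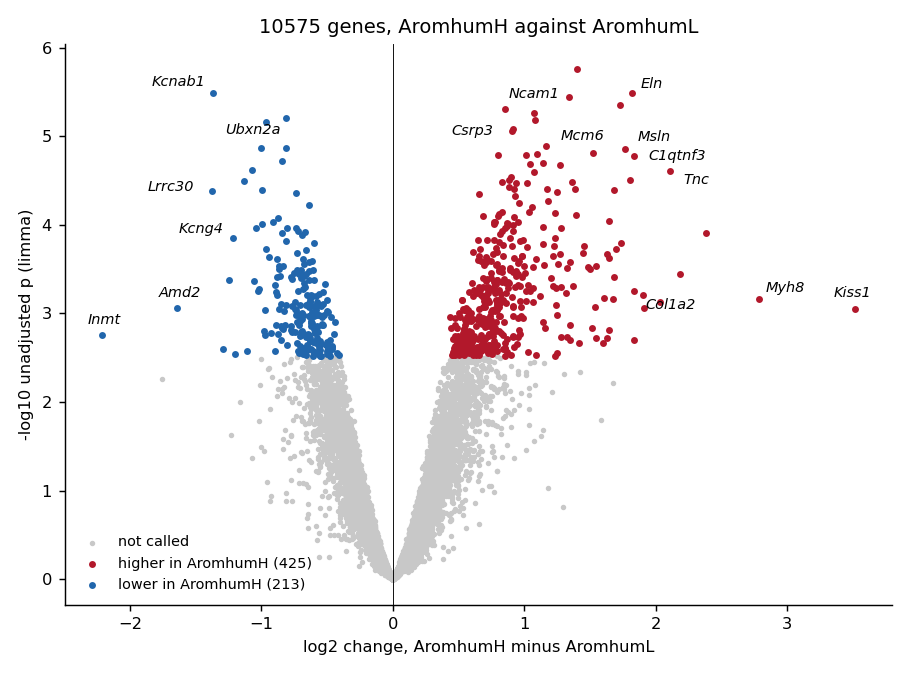
Each point is 1 of 10575 genes, with the log2 change of AromhumH minus AromhumL on the horizontal axis and −log10 of the unadjusted limma p on the vertical axis. Red points are the 425 genes called higher in AromhumH, blue points the 213 called lower; Kiss1 lies furthest right at 3.51 and Inmt furthest left at −2.21.

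The number of calls depended on single arrays and on brightness. Leaving out 1 array at a time gave 64 to 1060 called genes, with the lowest count without AromhumL 1, the dimmest array, and the highest without AromhumH 3. Counts were 115, 115 and 97 without AromhumH 1, 2 and 4, and 359 and 145 without AromhumL 2 and 4. In all 12 of these fits 59 genes passed (9.25% of the 638), 47 of them risen and 12 fallen. With the log2 brightness of each array as a covariate 0 of 10575 genes passed in limma (smallest adjusted p = 0.350, 843 genes with an unadjusted p under 0.05, against 2638 without the covariate). The 638 genes all kept their sign under it, their median absolute change was 0.54 instead of 0.73, and their median standard error 0.23 instead of 0.17. When each array was scaled by its 75th percentile instead of by quantiles, the split turned: 310 genes rose and 418 fell, so that 42.6% of the calls were rises, against 66.6% with quantile normalization. The bar chart of calls by setting gives each count.

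**Figure D3:**
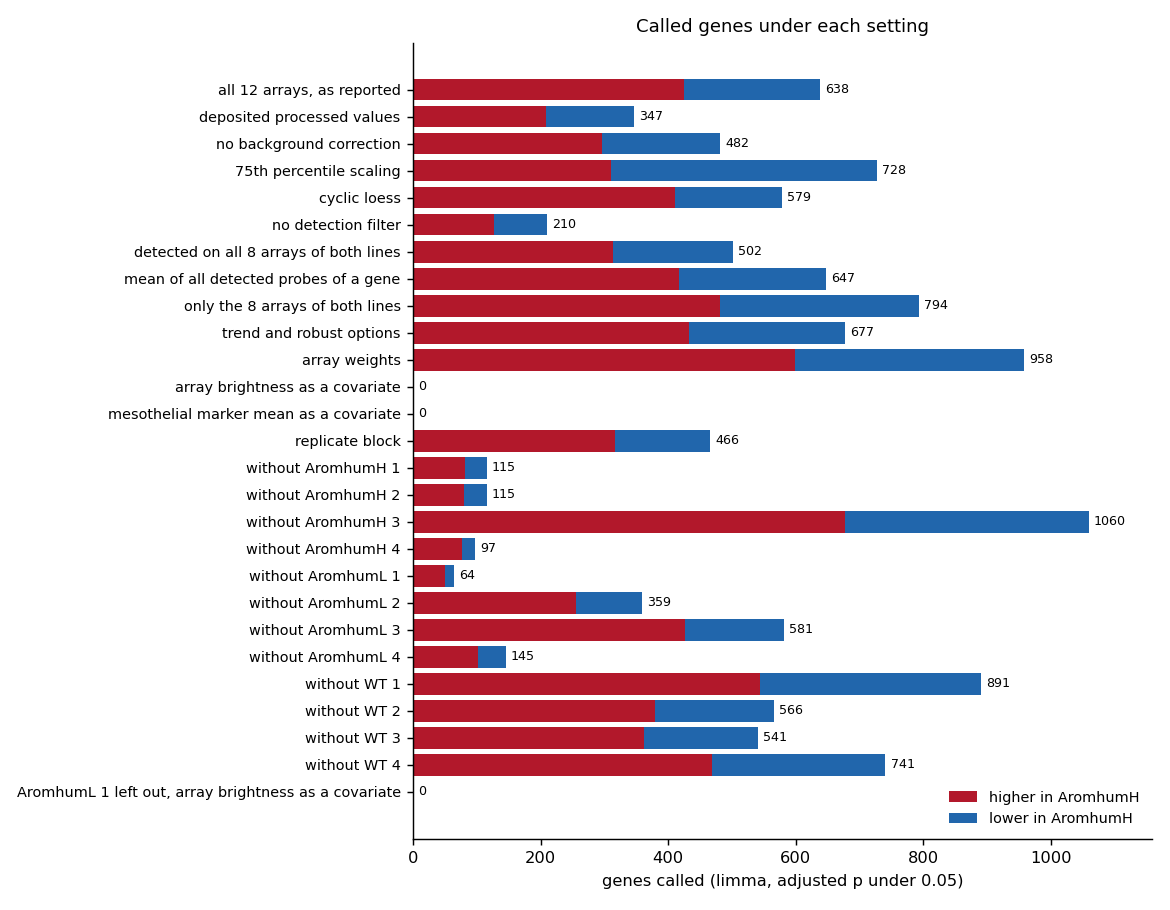
Bars give the number of genes called in AromhumH against AromhumL (limma, adjusted p under 0.05) under each processing setting, red for genes higher and blue for genes lower in AromhumH, with the total at the end of each bar. The count of 638 with all arrays stands at 64 without AromhumL 1, at 1060 without AromhumH 3 and at 0 with array brightness or the mesothelial mean as a covariate.

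Among genes that respond to oestrogen, Kiss1 had the largest rise among all 10575 genes tested. Kiss1 encodes kisspeptin, a neuropeptide of the reproductive axis that oestrogen regulates in the hypothalamus. Its probe read 10.77, 11.48, 10.36 and 10.68 on the AromhumH arrays, against 4.72, 9.49, 8.96 and 6.06 on the AromhumL arrays and 4.33 to 7.55 in WT. The AromhumH arrays were alike and the AromhumL arrays were spread over more than 4 log2 units, with arrays 2 and 3 high and arrays 1 and 4 low. The difference was 3.51 (SE 0.86, adjusted p = 0.0302 in limma), which is 11.4-fold, and it did not pass without AromhumL 1 (2.65, adjusted p = 0.0871), AromhumL 4 or AromhumH 1, 2 or 4. With the mesothelial mean as a covariate the Kiss1 difference was 0.20 (adjusted p = 0.981), and with brightness as a covariate it was 3.55 (adjusted p = 0.567). Kiss1 was the only one of 11 measured oestrogen-responsive genes that rose, and 0 of them fell. The median of the 11 was 0.46, and 10 of them lay above 0, against 49.5% of all genes tested. Esr1, the oestrogen receptor alpha gene, read 8.30, 9.25, 8.50 and 8.01 in AromhumH and 7.97, 7.85, 7.96 and 7.84 in AromhumL. All 4 AromhumH values were above all 4 AromhumL values, and the difference of 0.61 did not pass (95% interval 0.01 to 1.21, adjusted p = 0.193). Greb1, a classical oestrogen-induced gene, stood at 0.51 (adjusted p = 0.205).

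On the side of steroid conversion, 0 of 12 measured receptor and enzyme genes rose and 1 fell. This was Hsd11b1, whose enzyme regenerates active glucocorticoid from its inactive form. It read 8.35, 8.84, 9.13 and 8.07 in AromhumH, against 9.39, 9.23, 9.92 and 9.33 in AromhumL, without overlap, a difference of −0.87 (SE 0.23, adjusted p = 0.0400). The call was lost without any 1 of 7 of the 8 AromhumH and AromhumL arrays, AromhumH 3 being the exception. Akr1c18, which encodes a reductase that inactivates progesterone, fell by 1.11 (adjusted p = 0.0480), from readings of 4.87, 5.86, 5.60 and 4.48 in AromhumH against 6.28, 6.16, 6.91 and 5.88 in AromhumL. It had 1 of 4 AromhumH arrays below the detection limit, and its call was lost without any 1 of the other arrays of both lines or WT 3, and held without AromhumH 3. No probe carried the name of mouse Cyp19a1, which was not analysed here. Probes for Pgr and Mstn, the progesterone receptor and myostatin genes, were detected on 0 of 12 arrays.

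Of 10 androgen-responsive and polyamine genes measured, 0 rose and 2 fell. Amd2 encodes S-adenosylmethionine decarboxylase, which supplies the aminopropyl groups of polyamines, and it is a near-identical copy of Amd1, so reads of its probe may belong to either gene. It read 6.12, 7.07, 7.02 and 6.88 in AromhumH and 8.81, 8.92, 7.46 and 8.47 in AromhumL. The groups did not overlap, at a difference of −1.64 (SE 0.40, adjusted p = 0.0298), with its other probe at −0.78. Mylk2, the skeletal myosin light chain kinase gene, fell by 0.50 (adjusted p = 0.0477). Both calls were lost without AromhumL 1 (adjusted p = 0.0912 for Amd2 and 0.132 for Mylk2). The list's median was 0.01, and it was −0.03 under 75th percentile scaling, so it had no fixed sign.

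The fibrillar collagens, which form the rope-like fibres of connective tissue, were higher in AromhumH: 4 of 8 measured genes rose and 0 fell, with a median of 0.92 (0.88 under 75th percentile scaling). In bulk muscle, more cells of a type and more RNA per cell cannot be told apart. Col1a2, one of the chains of type I collagen, read 9.40, 8.90, 8.33 and 9.60 on the AromhumH arrays, against 6.74, 7.78, 7.32 and 7.06 on the AromhumL arrays. The groups were separate, and the difference was 1.84 (SE 0.42, adjusted p = 0.0255), a 3.57-fold rise. Its partner chain Col1a1 read 12.85, 12.13, 11.09 and 12.60 in AromhumH and 10.81, 11.30, 10.92 and 10.64 in AromhumL. Here AromhumH 3 lay below AromhumL 2, and the difference of 1.25 passed narrowly (SE 0.35, adjusted p = 0.0486). The WT mean of Col1a1 was 12.15, beside 12.16 in AromhumH and 10.92 in AromhumL. Col5a2 and Col5a1, chains of the type V collagen that nucleates type I fibres, rose by 1.03 and 0.86 (adjusted p = 0.0481 and 0.0258). Col3a1, of type III collagen, stood at 0.97 (SE 0.32, adjusted p = 0.0774) although its groups did not overlap. It was −0.06 with brightness as a covariate.

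Other interstitial collagens followed the same direction, with 5 of 9 risen, 0 fallen and a median of 0.91 (0.91 under 75th percentile scaling). Col8a1, a short network-forming collagen, rose by 1.63 (SE 0.34, adjusted p = 0.0198), from readings of 10.51, 10.88, 9.66 and 10.09 in AromhumH against 7.83, 8.82, 9.73 and 8.24 in AromhumL, where AromhumL 3 overlapped. Col6a2 of the microfibrillar type VI collagen rose by 1.37, and the fibril-associated Col16a1 and Col14a1 rose by 1.20 and 0.91 (adjusted p = 0.0247, 0.0229 and 0.0293). Another detected probe of Col6a2 stood at 0.25. In the basement membrane, the sheet around each fibre, 2 of 16 genes rose and 0 fell, with a median of 0.36: Col15a1 by 1.09 and Col18a1 by 0.66 (adjusted p = 0.0496 and 0.0325). Without AromhumH 1, 2 or 4, or AromhumL 1 or 4, 0 members of these 3 collagen and basement membrane lists passed. Their medians stayed above 0 in all 12 fits without 1 array, at 0.74 to 1.08 for fibrillar collagens, 0.78 to 1.13 for the other interstitial collagens and 0.27 to 0.45 for the basement membrane.

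Sequences upstream of 4 genes with large changes are shown as examples, 3 of matrix genes called higher in AromhumH and 1 of a channel gene called lower. They are the 250 bases before the first start listed for each gene, on the gene's strand, from RefSeq (GRCm38.p6). Col1a2 is shown with Tnc, an adhesion-modulating matrix glycoprotein, and Timp1, an inhibitor of matrix metalloproteinases, and then Kcng4, a potassium channel subunit that fell. Capitals mark CCAAT, a common promoter box, on either strand. In the Tnc window they mark the letters TATAAA, which resemble a core promoter element.
Col1a2: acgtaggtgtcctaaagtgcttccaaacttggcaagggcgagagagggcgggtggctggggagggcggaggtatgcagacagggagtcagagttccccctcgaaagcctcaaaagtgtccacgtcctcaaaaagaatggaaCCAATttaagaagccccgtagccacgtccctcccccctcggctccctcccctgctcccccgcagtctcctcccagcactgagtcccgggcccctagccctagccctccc
Tnc: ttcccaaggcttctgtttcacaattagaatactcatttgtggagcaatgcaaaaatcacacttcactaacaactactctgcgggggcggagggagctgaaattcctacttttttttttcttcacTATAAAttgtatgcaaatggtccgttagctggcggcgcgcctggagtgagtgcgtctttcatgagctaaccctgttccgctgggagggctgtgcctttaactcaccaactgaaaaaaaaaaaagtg
Timp1: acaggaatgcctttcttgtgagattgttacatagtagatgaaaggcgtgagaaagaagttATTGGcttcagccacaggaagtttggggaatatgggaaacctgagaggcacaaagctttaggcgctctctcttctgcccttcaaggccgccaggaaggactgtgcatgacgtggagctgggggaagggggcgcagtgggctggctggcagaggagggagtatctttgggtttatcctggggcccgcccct
Kcng4: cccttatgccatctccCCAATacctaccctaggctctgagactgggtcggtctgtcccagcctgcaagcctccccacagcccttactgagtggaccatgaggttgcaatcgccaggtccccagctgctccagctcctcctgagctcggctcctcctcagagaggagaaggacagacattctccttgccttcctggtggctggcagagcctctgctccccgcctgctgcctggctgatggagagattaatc
The windows lie at chr6:4505368-4505617 on the plus strand, chr4:64047016-64047265 on the minus strand, chrX:20869916-20870165 on the plus strand and chr8:119635681-119635930 on the minus strand. CCAAT begins 109 bases before the Col1a2 start and 234 bases before that of Kcng4, its reverse complement begins 190 bases before the Timp1 start, and TATAAA begins 126 bases before the first of 2 listed Tnc starts.

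Motif shares were counted in the 8553 tested genes with a promoter in the table. Both strands were searched, except for TATAAA, which was sought on the gene's strand only. CCAAT was held by 38.8% of 343 risen, 39.6% of 169 fallen and 35.6% of all 8553 promoters. TATAAA was held by 7.58% of risen, 5.92% of fallen and 4.48% of all tested promoters. The single-arm oestrogen receptor site AGGTCA was held by 9.33% of risen, 14.8% of fallen and 10.2% of all tested promoters. A palindromic oestrogen response element, which joins an inverted pair of GGTCA arms with 3 bases between them, was found in 0 of the 343, 0 of the 169 and 0 of the 8553 windows, against 17 of 27025 promoters in the whole table (0.0629%). A match or its lack describes these 250 bases only.

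Of 14 elastic fibre genes measured, 6 rose and 0 fell, with a median of 0.53 (0.53 under 75th percentile scaling), and 13 lay above 0. Eln encodes elastin, the core of the elastic fibre. It read 12.12, 11.54, 11.10 and 11.55 in AromhumH, against 9.32, 9.96, 10.24 and 9.51 in AromhumL. All 4 AromhumH arrays were well clear of the AromhumL arrays, and the difference was 1.82 (SE 0.26, adjusted p = 0.00727), a 3.53-fold rise, while its other, dimmer probe stood at 0.44. Mfap4, a microfibril-associated protein, read 10.80, 10.83, 10.54 and 11.18 in AromhumH and 9.15, 9.52, 9.74 and 9.40 in AromhumL, a rise of 1.38 (SE 0.24, adjusted p = 0.0102). Mfap5 rose by 1.02 and Emilin2, an elastin-microfibril interface protein, by 0.57 (adjusted p = 0.0184 and 0.0306). Eln and Mfap4 passed in all 12 fits without 1 array, and each of these fits called between 2 and 9 members of the list. The calls of Mfap5 and Emilin2 were lost without AromhumL 1 (adjusted p = 0.0709 and 0.0906).

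Matricellular proteins and proteoglycans, which tune how cells hold on to matrix, showed 4 rises and 0 falls among 20 measured, with a median of 0.41 (0.40 under 75th percentile scaling). Tnc, the tenascin C gene, typical of developing and healing tissue, read 8.82, 8.95, 7.29 and 9.26 on the AromhumH arrays, against 6.08, 7.01, 6.90 and 5.90 on the AromhumL arrays. AromhumH 3 was the lowest of its line and still above every AromhumL array. The difference was 2.11 (SE 0.36, adjusted p = 0.00963), a 4.32-fold rise, and its other probe stood at 2.13. Ccn3, a matricellular regulator of the CCN family, had a detected signal on all 4 AromhumH arrays and on 0 of the 4 AromhumL arrays, with 5.71, 5.31, 4.95 and 5.79 against 4.19, 4.37, 4.37 and 4.45. It was therefore at least 1.67-fold higher in AromhumH (adjusted p = 0.00839). With 2 detected WT arrays, Ccn3 met the detection filter only through its AromhumH arrays. Vcan, the large proteoglycan versican, and Thbs2, thrombospondin 2, rose by 1.46 and 1.32 (adjusted p = 0.0181 and 0.0408). Another probe of Vcan stood at 0.39. Tnc and Ccn3 passed in all 12 fits without 1 array, whereas Vcan did not pass without AromhumH 2, AromhumL 1 or AromhumL 4 (1.28, adjusted p = 0.0709 without AromhumL 1). Thbs2 stood at −0.10 with the mesothelial mean as a covariate and at 1.33 with brightness as a covariate.

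The machinery that folds and cross-links collagen inside and outside the cell was higher as well. Of 18 genes measured, 8 rose and 0 fell, with a median of 0.53 (0.50 under 75th percentile scaling). Plod2, the lysyl hydroxylase of collagen telopeptides, read 7.57, 7.39, 6.29 and 7.22 in AromhumH, against 5.95, 5.94, 6.07 and 5.56 in AromhumL. The lowest AromhumH array stood just above the highest AromhumL array, and the rise was 1.24 (SE 0.23, adjusted p = 0.0145), with 2 other probes at 0.03 and 1.32. P3h4, a partner of lysyl hydroxylation in the endoplasmic reticulum, read 6.62, 6.48, 6.53 and 6.91 in AromhumH and 5.59, 5.56, 5.69 and 5.64 in AromhumL, a rise of 1.01 (SE 0.16, adjusted p = 0.00839). Crtap, of the prolyl 3-hydroxylase complex, rose by 0.71, and P4hb, the beta subunit of prolyl 4-hydroxylase, by 0.53 (adjusted p = 0.0235 and 0.0278). Plod2 and P3h4 passed in all 12 fits without 1 array, and the count for the list ran from 2 to 10.

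Among matrix proteases and their inhibitors 2 of 13 rose and 0 fell, with a median of 0.32. Timp1 read 9.13, 9.98, 8.39 and 9.40 in AromhumH, against 6.91, 8.30, 7.98 and 6.76 in AromhumL and 6.66 to 7.49 in WT. The AromhumH arrays were just above the AromhumL arrays 2 and 3, and the difference was 1.74 (SE 0.35, adjusted p = 0.0174), with its other probe at 1.72. Without AromhumL 1 it did not pass (1.55, adjusted p = 0.0702), nor without AromhumL 4, AromhumH 2 or AromhumH 4. Mmp23, a membrane-bound metalloproteinase, rose by 1.04 (SE 0.17, adjusted p = 0.00889) and passed in all 12 fits. Of 18 genes of transforming growth factor beta signalling, which drives matrix production, 3 rose and 0 fell, with a median of 0.16 (0.06 under 75th percentile scaling). They were the ligands Bmp4 at 0.70 and Tgfb3 at 0.47 and the follistatin-like Fstl1 at 0.91 (adjusted p = 0.0286, 0.0407 and 0.0406), and 0 of the list passed without AromhumL 1.

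**Figure D4:**
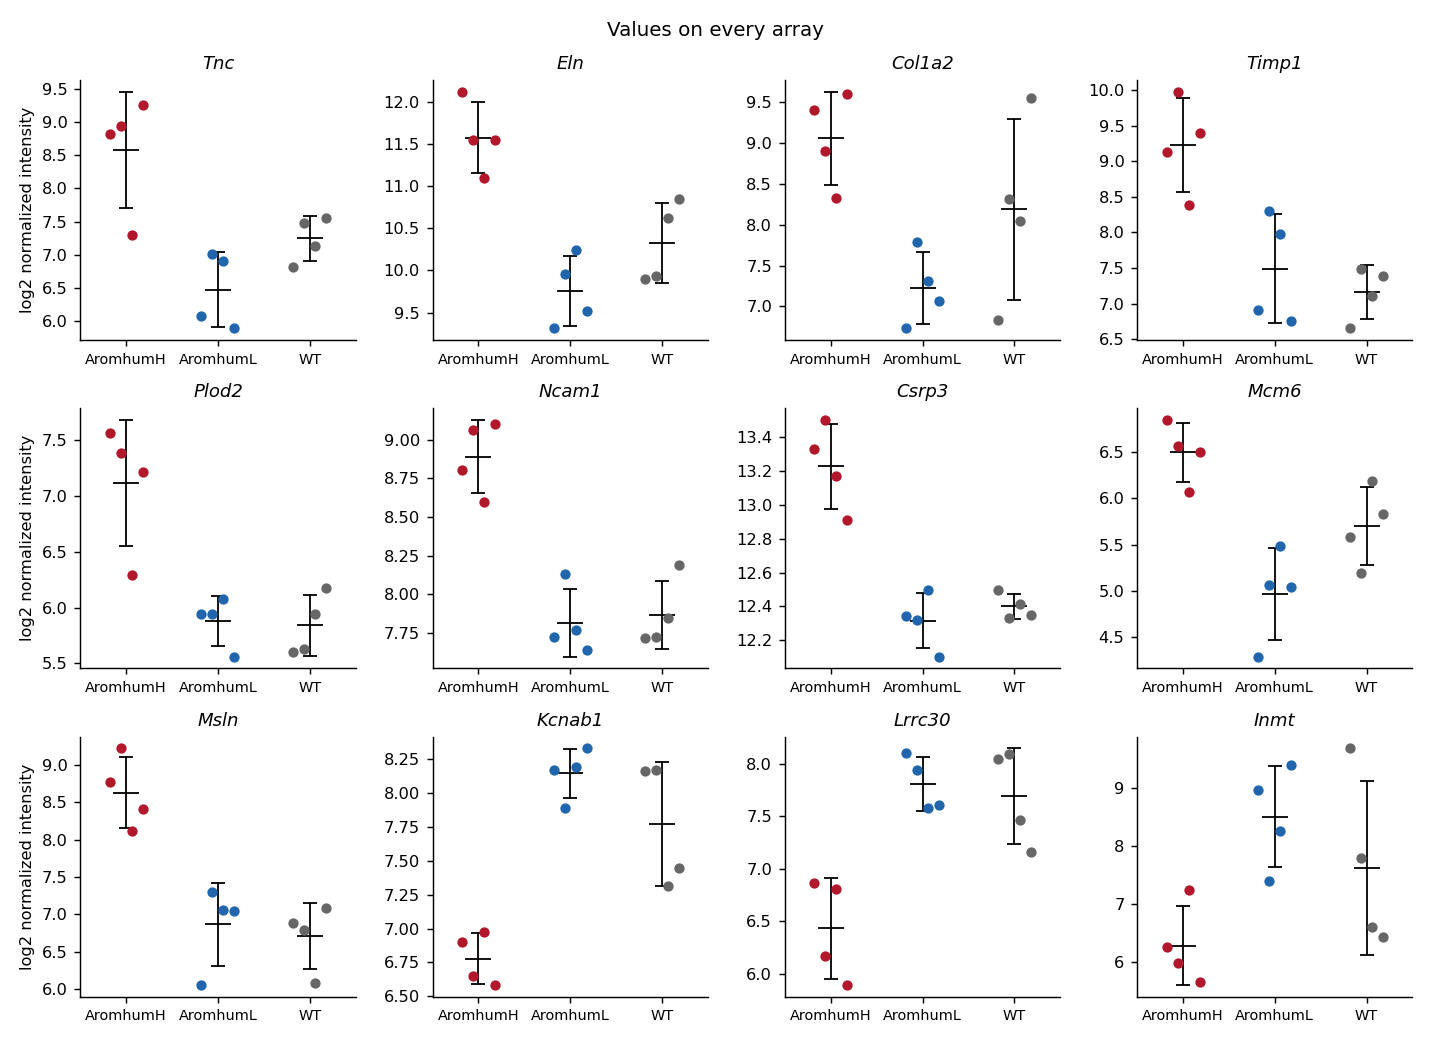
Log2 normalized intensity of 12 genes on every array, in columns for AromhumH, AromhumL and WT; points are arrays and bars the group mean and SD (n = 4), and each panel has its own axis. In all 12 panels the 4 AromhumH arrays do not overlap the 4 AromhumL arrays, above them for the first 9 genes (Tnc at 7.29 to 9.26 against 5.90 to 7.01) and below them for Kcnab1, Lrrc30 and Inmt.

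Markers of cells other than muscle fibres moved with these matrix genes in part. Of 15 fibroblast markers 4 rose and 0 fell, with a median of 0.32, and the array means were 8.48 to 8.83 in AromhumH, 8.07 to 8.45 in AromhumL and 8.06 to 8.34 in WT. S100a4, a calcium-binding protein of fibroblasts and other motile cells, read 7.73, 7.83, 7.28 and 7.84 in AromhumH, against 6.01, 5.92, 6.22 and 5.62 in AromhumL, a rise of 1.73 (SE 0.25, adjusted p = 0.00727). Lrrc15, a membrane protein of activated fibroblasts, read 6.94, 6.84, 5.19 and 6.76 against 4.44, 4.93, 4.88 and 4.76, a rise of 1.68 (SE 0.30, adjusted p = 0.0102), with AromhumH 3 far below the other AromhumH arrays. Thy1 and Fap rose by 1.28 and 0.70 (adjusted p = 0.0247 and 0.0469), while the broad fibroblast genes Pdgfra and Pdgfrb stood at 0.19 and 0.16 and did not pass. Of the 15 markers 12 lay above 0 and 3 below, the lowest at −1.01, which did not pass. S100a4 and Lrrc15 passed in all 12 fits without 1 array.

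Mesothelial markers rose in 5 of 7 cases, 0 fell, and all 7 lay above 0, with a median of 0.97. Msln, mesothelin, read 8.77, 9.22, 8.12 and 8.41 on the AromhumH arrays, against 6.06, 7.30, 7.06 and 7.05 on the AromhumL arrays and 6.08 to 7.09 in WT. The AromhumH arrays were clear of both other groups, and the difference was 1.76 (SE 0.28, adjusted p = 0.00839). Lrrn4, Upk1b and Gpm6a rose by 1.61, 1.497 and 0.97 (adjusted p = 0.0275, 0.0214 and 0.0173). Calb2 did not pass the detection filter, and Wt1 and Muc16 had no named probe. Of 6 epithelial markers 3 rose and 0 fell, with array means of 6.80 to 7.24 in AromhumH and 5.72 to 6.70 in AromhumL. Krt8, a keratin of simple epithelia and mesothelium, read 8.14, 8.60, 7.33 and 8.01 in AromhumH and 5.57, 7.26, 6.11 and 5.92 in AromhumL, a rise of 1.81 (SE 0.31, adjusted p = 0.00999). Its partner Krt18 and the epidermal keratin Krt14 rose by 1.22 and 1.84 (adjusted p = 0.0181 and 0.0424). Among the epithelial markers Epcam, Krt5, Krt1, Krt15 and Lor did not pass the detection filter. Msln and Krt8 passed in all 12 fits without 1 array, whereas 1 mesothelial marker passed without AromhumL 1 or without AromhumH 2. With the mesothelial mean as a covariate 0 of 10575 genes passed in limma (smallest adjusted p = 0.586, 645 genes with an unadjusted p under 0.05), and 624 of the 638 called genes kept their sign. The part of these cells in the other differences was not tested beyond that fit.

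Other cell type markers had fewer calls. Adipocyte, macrophage, lymphocyte and granulocyte, endothelial, smooth muscle, Schwann cell and erythroid markers had 0 called members of 12, 12, 5, 11, 10, 7 and 6 measured. Their medians ran from −0.12 for Schwann cell markers to 0.70 for erythroid markers, and the members with the smallest p in each list ran from −0.93 for Adipoq to 1.07 for Alas2. Adipoq, adiponectin, read 11.70, 7.98, 9.03 and 8.10 in AromhumH and 10.41, 9.63, 10.09 and 10.42 in AromhumL, so AromhumH 1 was above and the other AromhumH arrays below the whole AromhumL range. Of 7 tendon and cartilage markers 1 rose, the tendon transcription factor gene Scx, by 0.80 (adjusted p = 0.0387), and it did not pass without AromhumL 1 (adjusted p = 0.116). Among 3 Y-linked genes Eif2s3y was detected on 4 of 4 AromhumH and 0 of 4 AromhumL arrays, which placed it at least 1.07-fold higher (adjusted p = 0.0486, and 0.120 without AromhumL 1).

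Growth and cell division genes were higher in AromhumH. Of 22 genes of DNA replication and mitosis 12 rose and 0 fell, 21 lay above 0, and the median was 0.81 (0.54 under 75th percentile scaling). Mcm6, a subunit of the replicative helicase, read 6.84, 6.57, 6.07 and 6.50 in AromhumH, against 4.29, 5.07, 5.48 and 5.04 in AromhumL. All AromhumH arrays were above all AromhumL arrays, of which 3 of 4 had a detected signal, and the difference was 1.52 (SE 0.25, adjusted p = 0.00839). Mcm5 of the same helicase, the chromosomal passenger gene Cdca8 and the mitotic kinase gene Plk1 rose by 1.28, 1.14 and 0.81 (adjusted p = 0.0151, 0.0151 and 0.0160). Uhrf1, which helps to copy DNA methylation after replication, rose by 1.68 (SE 0.37, adjusted p = 0.0229). The Uhrf1 call was lost without AromhumL 1 (1.37, adjusted p = 0.0746), AromhumL 4 or AromhumH 1, 2 or 4. Of the 22 measured members 1 passed without AromhumL 1, which was Mcm6, and 14 passed without AromhumH 3. The median of the list was 0.73 without AromhumL 1 and 0.38 with brightness as a covariate.

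In the insulin-like growth factor axis and among imprinted growth genes 4 of 18 rose and 1 fell, with a median of 0.41. Dlk1, an imprinted membrane protein that restrains adipocyte formation, read 8.73, 7.80, 7.28 and 7.98 in AromhumH and 5.85, 6.60, 6.29 and 6.27 in AromhumL, a rise of 1.70 (SE 0.35, adjusted p = 0.0187), with its other probe at 0.61. Mest and Igf2, both expressed from the paternal allele, rose by 1.64 and 0.98 (adjusted p = 0.0202 and 0.0322), and Grb10, an adaptor of insulin signalling, by 0.78 (adjusted p = 0.0256). Ghr, the growth hormone receptor gene, fell by 0.61 (adjusted p = 0.0437). Igf1, which growth hormone induces, stood at 0.37 (adjusted p = 0.182). Without AromhumL 1 the list had 0 calls. Dlk1 had a WT range of 6.36 to 8.11, which lay across both lines.

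Genes of developing and regenerating muscle were higher in AromhumH, with 7 of 15 risen, 0 fallen and a median of 0.73 (0.65 under 75th percentile scaling). Ncam1, a cell adhesion molecule of satellite cells and of fibres without nerve contact, read 8.80, 9.06, 8.60 and 9.10 in AromhumH, against 7.72, 8.13, 7.77 and 7.64 in AromhumL and 7.71 to 8.19 in WT. The AromhumH arrays were above every array of the other groups, and the difference was 1.07 (SE 0.16, adjusted p = 0.00727), with 3 other probes at 0.31 to 1.02. Csrp3, a LIM protein of the Z-disc that responds to stretch, read 13.33, 13.50, 13.17 and 12.91 in AromhumH and 12.34, 12.32, 12.50 and 12.11 in AromhumL. Its rise of 0.91 (SE 0.14, adjusted p = 0.00771) was matched by 2 other probes at 1.09 and 1.10. Actc1, cardiac alpha-actin, which is expressed in immature skeletal fibres, rose by 1.54 and Myog, the transcription factor of myoblast differentiation, by 0.89 (adjusted p = 0.0206 and 0.0215). Another probe stood at 1.66 for Actc1 and at 0.19 for Myog. Ncam1 and Csrp3 passed in all 12 fits without 1 array, and the list had 2 to 10 calls across these fits.

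Myh8, the perinatal myosin heavy chain gene, read 11.003, 13.108, 11.57 and 11.208 in AromhumH, against 7.64, 9.31, 11.37 and 7.44 in AromhumL and 8.19 to 8.97 in WT. AromhumL 3 lay inside the AromhumH range while the other AromhumL arrays were below it. The difference was 2.78 (SE 0.66, adjusted p = 0.0278), its 2 other probes stood at 2.55 and 2.79, and it did not pass without AromhumL 1 (2.35, adjusted p = 0.0906).

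Adult contractile lists had 1 call among fast-fibre and 3 among slow-fibre genes, while 4.02% of all genes tested were called higher. Of 16 fast-fibre genes 1 rose, Tpm1 at 0.67 (adjusted p = 0.0401), 0 fell, and the median was 0.00 (−0.02 under 75th percentile scaling). The Tpm1 call was lost without AromhumL 1 (adjusted p = 0.108). Of 16 slow-fibre genes 3 rose and 0 fell, with a median of 0.15. One of the 3 was Csrp3, which is also counted among the developing muscle genes above. Casq2, the calcium store protein of slow and cardiac muscle, read 8.70, 8.55, 8.73 and 8.67 in AromhumH and 7.61, 7.29, 7.56 and 7.95 in AromhumL. The AromhumH arrays were tightly grouped above the AromhumL arrays, at a difference of 1.06 (SE 0.20, adjusted p = 0.0130) that passed in all 12 fits without 1 array. Sln, sarcolipin, which regulates the calcium pump, read 11.74, 11.94, 12.11 and 11.96 in AromhumH and 11.50, 11.27, 11.26 and 11.29 in AromhumL, a rise of 0.61 (SE 0.13, adjusted p = 0.0196). Sln still passed without AromhumL 1 (adjusted p = 0.0458) and did not without AromhumL 4, AromhumH 2 or AromhumH 4.

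The fallen genes included potassium channel subunits. Of 18 genes of membrane excitability 0 rose and 4 fell, 13 lay below 0, and the median was −0.33 (−0.39 under 75th percentile scaling). Kcnab1, a cytoplasmic beta subunit of voltage-gated potassium channels, read 6.90, 6.65, 6.98 and 6.58 on the AromhumH arrays, against 8.16, 7.89, 8.19 and 8.33 on the AromhumL arrays and 7.31 to 8.17 in WT. Both lines were tight and far apart. The difference was −1.36 (SE 0.19, adjusted p = 0.00727), a 2.58-fold fall, with its other probe at −0.87. Kcng4, the modulatory subunit whose promoter is printed above, read 6.19, 6.51, 6.61 and 6.58 in AromhumH and 7.73, 7.64, 7.16 and 8.23 in AromhumL, a difference of −1.22 (SE 0.24, adjusted p = 0.0170), with its other probe at −1.54. Kcnj2, the inward rectifier that holds the resting potential, read 5.13, 5.22, 5.25 and 5.22 in AromhumH and 5.91, 5.71, 5.87 and 5.88 in AromhumL, at −0.64 (SE 0.12, adjusted p = 0.0126). Lrrc38, an auxiliary subunit of large-conductance potassium channels, fell by 0.68 (adjusted p = 0.0322). Kcnab1 and Kcnj2 passed in all 12 fits without 1 array, and Kcng4 did not pass without AromhumL 1 (adjusted p = 0.0591) or AromhumH 1.

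The largest fall was that of Inmt, an enzyme that methylates tryptamine and other amines. Inmt read 6.26, 5.99, 7.24 and 5.66 in AromhumH, against 8.95, 7.40, 8.26 and 9.38 in AromhumL and 6.43 to 9.67 in WT. The lines did not overlap, but the spread was wide, and the difference of −2.21 (SE 0.59, adjusted p = 0.0401) did not pass without AromhumL 1 (−2.06, adjusted p = 0.112). Lrrc30, a leucine-rich repeat gene, read 6.87, 6.17, 6.80 and 5.89 in AromhumH and 8.10, 7.94, 7.58 and 7.60 in AromhumL, a difference of −1.37 (SE 0.24, adjusted p = 0.0102). Rab12, a small GTPase of membrane traffic, fell by 1.13 and Il4i1, a secreted amino acid oxidase of immune cells, by 1.07 (adjusted p = 0.00999 and 0.00963). Ubxn2a, a ubiquitin-pathway adaptor, stood at −1.001 (adjusted p = 0.00839), but its other probe stood at 0.39. Asb10 and Asb14, substrate adaptors of ubiquitin ligases, fell by 1.05 and 1.02 (adjusted p = 0.0236 and 0.0253). Egr3, an immediate early transcription factor gene, stood at −1.29 (adjusted p = 0.0467) with its other probe at −0.00. Hmgn5, Gbx2 and Sppl2c completed the 15 largest falls at −1.25, −1.04 and −1.02 (adjusted p = 0.0232, 0.0151 and 0.0256). The other probe of Sppl2c stood at −0.24. Lrrc30, Rab12, Il4i1 and Ubxn2a passed in all 12 fits without 1 array. Without AromhumL 1 the adjusted p was 0.0748 for Asb10, 0.0816 for Asb14, 0.113 for Egr3, 0.0709 for Hmgn5, 0.0555 for Gbx2 and 0.0766 for Sppl2c.

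The remaining large rises had varied roles. C1qtnf3, a secreted C1q-related protein of fat and mesenchyme, read 9.46, 9.01, 7.97 and 9.25 in AromhumH and 6.75, 7.26, 7.16 and 7.18 in AromhumL, a rise of 1.84 (SE 0.30, adjusted p = 0.00839) that passed in all 12 fits without 1 array. Emb, embigin, a partner of lactate transporters, read 9.39, 10.55, 8.16 and 8.39 against 5.95, 8.01, 7.85 and 6.55, a rise of 2.03 (SE 0.49, adjusted p = 0.0283). Emb was −0.22 with the mesothelial mean as a covariate and 1.28 with brightness as a covariate. It did not pass without AromhumL 1 (adjusted p = 0.0906). The histone genes H2ac22, H2ac24 and H2ac7 stood at 2.19, 1.91 and 1.90 (adjusted p = 0.0219, 0.0298 and 0.0266), are nearly identical copies whose signals may not be separate, and did not pass without AromhumL 1 (adjusted p = 0.0746 to 0.0924).

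Metabolic and protein turnover lists had 0 to 3 calls each, while 2.01% of all genes tested were called lower and 4.02% higher. Falls made up a larger share of the respiratory chain and glycolysis lists than of all genes tested. Of 30 genes of the respiratory chain and citrate cycle 0 rose and 3 fell, 22 lay below 0, and the median was −0.14 (−0.18 under 75th percentile scaling). Mdh2, malate dehydrogenase, read 12.132, 12.287, 12.305 and 12.004 in AromhumH and 12.663, 12.603, 12.606 and 12.639 in AromhumL, a difference of −0.45 (SE 0.12, adjusted p = 0.0398) without overlap. Idh3a of isocitrate dehydrogenase and Ndufv2 of complex I stood at −0.46 and −0.42 (adjusted p = 0.0462 and 0.0484), with another Idh3a probe at 0.23. Of 21 glycolysis and glycogen genes 0 rose and 2 fell, Gys1, muscle glycogen synthase, at −0.84 and Pfkfb3, a regulator of glycolytic flux, at −0.70 (adjusted p = 0.0370 and 0.0215). Of 24 genes of fatty acid oxidation 0 passed in limma, with Acaa2 lowest in p at −0.59 (adjusted p = 0.133) and a median of −0.14. Without AromhumL 1 these 3 lists had 0 calls.

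Of 20 genes of atrophy and proteolysis 1 rose, the metallothionein gene Mt1 at 0.66 (adjusted p = 0.0255), 0 fell, and the median was −0.21. The muscle ubiquitin ligase genes Fbxo32 and Trim63, commonly used as marks of atrophy, stood at −0.83 and −0.28 (SE 0.26 and 0.33, adjusted p = 0.0722 and 0.636). Fbxo32 read 7.86, 7.94, 8.96 and 8.62 in AromhumH against 9.97, 8.73, 8.90 and 9.08 in AromhumL, with overlap. The 2 other probes of Fbxo32 stood at −1.15 and −1.06. Of 27 proteasome subunits 1 fell, Psmd2 at −0.70 (adjusted p = 0.0218, other probe −0.11), and of 26 ribosomal protein genes 0 passed in limma, with a median of 0.17 and Rps16 at 0.43 (adjusted p = 0.0558). Interferon-stimulated, clock and stress gene lists had 1, 0 and 1 calls of 13, 11 and 19, with medians of 0.06, −0.03 and 0.03 (−0.04, −0.15 and 0.00 under 75th percentile scaling). These were Irf1 at 0.49 (adjusted p = 0.0452) and the heat shock gene Hspa1b, detected on 4 of 4 AromhumH and 0 of 4 AromhumL arrays and at least 1.57-fold higher (adjusted p = 0.00727), with its other probe at −0.39. Per2, the clock gene with the smallest p, stood at 0.67 (adjusted p = 0.0719). The calls of Mt1, Psmd2 and Irf1 were lost without AromhumL 1 (adjusted p = 0.0823, 0.0712 and 0.132). The plot of list members sets these lists beside the matrix and growth lists.

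**Figure D5:**
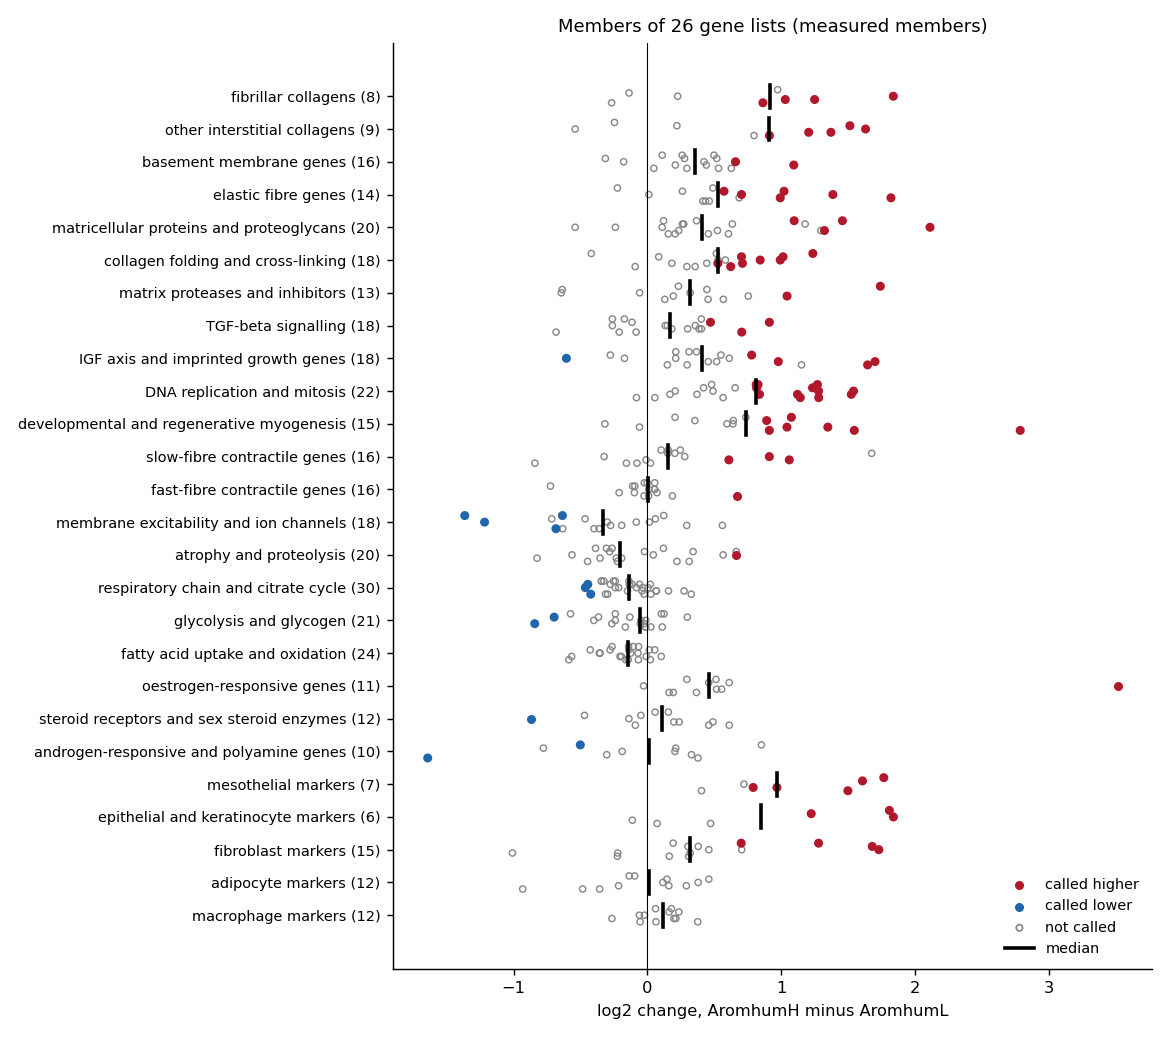
Each point is a measured member of a gene list, placed by its log2 change of AromhumH minus AromhumL; filled red and blue points passed the test as higher and lower, open points did not, and black bars are list medians. Numbers in brackets are measured members; medians lie at 0.92 and 0.91 for the collagen lists and 0.81 for DNA replication and mitosis, at 0.00 for fast-fibre genes and at −0.33 for ion channels.

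The lines can also be placed beside WT, with which each comparison shares its arrays. In the same fit 125 genes (1.18%) passed between AromhumH and WT and 0 between AromhumL and WT. The 425 risen genes had a median of 0.55 for AromhumH minus WT and −0.23 for AromhumL minus WT, and the 213 fallen genes had medians of −0.44 and 0.25. The WT level thus lay between the lines at the median, nearer to AromhumL. These genes were chosen because the lines differ on the same arrays, which by itself favours a WT level between the lines. Lists differed in this placing. Mesothelial markers had medians of 1.11 for AromhumH minus WT and 0.18 for AromhumL minus WT, collagen folding genes 0.46 and −0.03, and myogenesis genes 0.60 and −0.05. Fibrillar collagens had medians of 0.23 and −0.27, other interstitial collagens 0.48 and −0.42, and tendon and cartilage markers −0.37 and −1.16.

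Other probes of the called genes gave a second reading on the same arrays. Of 368 other detected probes of 254 called genes, 311 (84.5%) pointed the same way as the brightest probe and 194 (52.7%) did so with an unadjusted p under 0.05, while 7 pointed the other way at that p. For genes that were not called, 64.0% of 5321 other probes pointed the same way and 16.9% did so at that p. Fitting all 19004 detected probes instead of 1 per gene gave 901 calls (4.74%).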

How the data were processed

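The authors deposited 1 linear intensity per probe and array, not normalized, and beside it a detection p-value, per the file headers. A processed table deposited beside it served as an alternative. In that deposited table the log2 values had the same median on each array (7.17). Equal medians alone do not tell which normalization the authors used, and the background step is unknown. Per the labels, Trizol RNA was DNase-treated and biotin-labelled. No source used here gives scanner software or chip positions, so no slide effect was tested. Gene symbols came from the platform annotation: of 45281 probes 34885 carried a single symbol, 18 carried several, and 10378 carried none, and unnamed probes were left out of gene counts.

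Intensities were background-corrected and quantile-normalized with neqc (offset 16) of limma 3.58.1 in R 4.3.3. Probes with a detection p-value under 0.05 on at least 4 of 12 arrays were kept (19004), and each gene was taken from its brightest named probe. lmFit and eBayes were run on the 12 arrays together, with a mean for each group (9 residual and 6.53 prior degrees of freedom). Benjamini-Hochberg adjustment took in all 10575 genes. The number of arrays limits the precision. The procedure was tested on simulated data. A gene detected on no array of a group was given as a bound. Ccn3, Hspa1b and Eif2s3y, each detected on 2 WT arrays, met the filter only through AromhumH. Their detection counts in the lines are therefore not separate from the filter. Within groups, arrays correlated at 0.977 to 0.988, and 0 pairs were identical.

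Named genes are the 15 largest rises and falls among called genes without overlap, up to 4 called members of each of 38 lists (otherwise the member with the smallest p), and a fixed set. The members, lists and rules were chosen with earlier results of these data known, so list counts and medians are descriptions. CCAAT and TATAAA were added to the motif search later. Alternatives covered background, scaling, filter, probe choice, arrays in the fit, weights, covariates, the replicate number as a block and each array left out.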

Additional observations from a re-analysis of the deposited data

Results flagged for a closer look

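Of 220 groups of 4 arrays examined, for 107 named genes in each line and the array measures, 14 held an array far from the other 3, and chance alone marks about 1 in 20. AromhumH 3 was the low array in 5 of them: Col16a1 at 10.34 (others 11.19 to 11.30), Thbs2 at 9.47 (10.77 to 10.83), Mmp23 at 8.14 (8.73 to 8.85), Lrrc15 at 5.19 (6.76 to 6.94) and Krt14 at 8.65 (9.65 to 9.81). In AromhumH, array 2 was high for Vcan at 7.99 (7.04 to 7.17) and array 1 low for Pfkfb3 at 4.54 (4.71 to 4.73). AromhumL 3 was high for Mfap5 at 10.39 (9.47 to 9.57) and low for Lrrc38 at 8.64 (9.09 to 9.16). AromhumL 4 was low for Gbx2 at 5.81 (5.94 to 5.97) and Grb10 at 10.32 (10.55 to 10.59). AromhumL 1 was high for Sln at 11.50 (11.26 to 11.29), AromhumL 2 low for Kit at 5.40 (5.89 to 5.93), and AromhumL 1 was dim, at a mean raw intensity of 221.6 (267.6 to 273.9).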

How the results depend on the processing

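Against 638 calls, the authors' processed table gave 347, dropping the detection filter gave 210, weighting arrays gave 958, and 0 were found with brightness or the mesothelial mean as a covariate or, chosen after seeing the data, with AromhumL 1 left out and brightness as a covariate (839 genes with an unadjusted p under 0.05). Leaving out 1 array gave 64 to 1060. The smallest change was to 647, for the mean of all probes of a gene, and 482 to 794 calls were found without background correction, under 75th percentile scaling, cyclic loess, a filter on all 8 arrays, trend and robust options, or in a fit of the 8 arrays of both lines. With the replicate number as a block 466 genes passed (317 rose, 149 fell), 430 of them among the 638. Over all genes, arrays of the same number did not deviate together (correlations of −0.18, 0.05, −0.02 and 0.02). Whether they share a chip or a preparation is not given, and these correlations cannot settle it. For brightness the exact permutation p of 0.0286 was 0.143 for median intensity and 0.0857 for detected probes, and 0.0286 to 0.0571 without 1 array. Among named genes that were called, direction turned in 4 cases, all with the mesothelial mean as a covariate. These were Emb at −0.22, Thbs2 at −0.10, Krt14 at −0.24 and Upk1b at −0.18, whose own values enter that mean. Among named genes that were not called, direction turned for Greb1 at −0.63, Fbxo32 at 0.17 and Trim63 at 0.27 with that covariate. It also turned for Col3a1 with brightness as a covariate, at −0.06 with AromhumL 1 and −0.06 without it. Over the 107 named genes and their alternatives a call was lost in 807 cases and gained in 23, and 1937 cases stayed on the same side of the threshold. The cause was not tested. With 4 arrays a line the median standard error was 0.16, and dim probes such as those of Ccn3 and Hspa1b have only a bound in AromhumL.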

Other observations

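4 gene families were looked at after their values had been seen, so their counts are descriptions. Of 11 alpha- and beta-tubulin genes, which build microtubules, 6 were called higher in AromhumH and 0 lower, with a median of 0.72 (AromhumH minus AromhumL, log2). Tubb2b read 9.90, 10.27, 9.18 and 9.85 in AromhumH and 8.44, 9.19, 8.91 and 8.29 in AromhumL, a difference of 1.09 (adjusted p = 0.0202, limma), and Tuba1a stood at 0.97 (adjusted p = 0.0398). Without AromhumL 1 the family had 0 calls and a median of 0.65.

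Of 26 secretory pathway genes 7 were higher and 1 was lower, with a median of 0.34 (0.11 with brightness as a covariate). They encode translocon and coat protein complex II parts, Tmed proteins, and chaperones and disulfide isomerases of the endoplasmic reticulum. Hspa5, the chaperone BiP, stood at 1.16 (adjusted p = 0.0371), Sec61a1, the channel subunit, at 0.73 (adjusted p = 0.0398), and the vesicle coat genes Sec24d and Sec23a at 0.67 and −0.87 (adjusted p = 0.0346 and 0.0302). Without AromhumL 1 the family had 1 call.

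Of 41 replication-dependent histone genes 6 were higher, all of the H2ac group, while the median was −0.13. The other measured H2ac genes did not pass and ran from −0.59 for H2ac19 to 0.67 for H2ac20. The 6 shared a pattern, high on AromhumH 1 and 4, as in H2ac22 at 10.57, 9.41, 9.24 and 10.76 in AromhumH against 7.28, 8.42, 7.86 and 7.68 in AromhumL. Of 13 Asb ubiquitin ligase adaptors 3 were lower and 0 higher, with a median of −0.20, and Asb2, known for its role in muscle, stood at −0.85 (adjusted p = 0.0419). Both families had 0 calls without AromhumL 1.

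As limits, the labels give neither separate animals nor aromatase levels, the lines differ in brightness without overlap, and the mean over the mesothelial markers and that over the epithelial markers were higher on every AromhumH array than on any AromhumL array, though single markers such as Krt14 overlapped. Whether these measures account for any gene's difference cannot be told apart from the line with these 8 arrays.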
